A study of Mus musculus with 2 samples.

Results

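The genes described here are the DUSP, Sprouty and Spred genes that act as negative feedback on MAP kinase signalling. They were chosen by name as the spots on both arrays whose gene name was Dusp1, Dusp2, Dusp4, Dusp5, Dusp6, Dusp10, Spry1, Spry2, Spred1 or Spred2. Of these 10 genes, 9 had a probe, with 14 of the array's 41174 probes and 9 of its 27743 gene names. Dusp5 was not analysed here because no spot carried its name. The arrays compared LSK cells of wild-type mice with LSK cells of PAD4-deficient mice (PAD4-/-), both of strain C57BL/6, with 1 array per group. LSK cells are bone marrow cells without lineage markers that carry Sca-1 and c-Kit, sorted here by flow cytometry, and they hold the stem cells and multipotent progenitors of the blood. PAD4, encoded by Padi4, converts arginine in histones and other proteins to citrulline. The labels give no age or sex of the mice, no description of the allele that removes PAD4 and no word on pooling. With 1 array per group, no test between genotypes was possible, and the errors below are scanner errors, which do not cover variation between mice or sorts. Where 2 signals are given, the wild-type one comes first, and a difference is log2, PAD4-deficient minus wild-type, after each array was scaled to its 75th percentile. Measured probes are those that the scanner software put well above background in both samples.

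MAP kinases such as ERK, JNK and p38 are switched on by phosphorylation, and in blood progenitors growth factor receptors such as c-Kit and Flt3 reach ERK through Ras, Raf and MEK. DUSP enzymes of the MAP kinase phosphatase group remove these phosphates, while Sprouty and Spred proteins dampen the pathway further up, at the receptor and at Ras and Raf. Many of these genes are switched on by the kinases they restrain, so their transcripts are often read as a record of recent MAP kinase activity.

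To show the DNA from which such feedback transcription starts, the 250 bases upstream of the RefSeq start of 2 members are printed, Dusp1, whose difference was the largest above 0, and Dusp6, a gene often used as a read of ERK activity (build GRCm38.p6, 5′ to 3′ on the strand of the gene). Capitals mark matches to any of 5 motifs, searched on both strands: the cyclic AMP response element (TGACGTCA), an ETS factor core (CGGAAG), an AP-1 site (TGACTCA), an E-box (CACGTG) and the CArG box of serum response factor. The Dusp1 window lies at chr17:26508473-26508722 on the minus strand and the Dusp6 window at chr10:99262981-99263230 on the plus strand.
Dusp1: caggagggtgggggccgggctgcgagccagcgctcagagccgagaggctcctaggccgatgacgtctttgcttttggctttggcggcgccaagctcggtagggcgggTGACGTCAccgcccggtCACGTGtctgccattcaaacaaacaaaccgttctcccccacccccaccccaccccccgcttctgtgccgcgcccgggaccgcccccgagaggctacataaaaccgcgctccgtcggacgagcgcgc
Dusp6: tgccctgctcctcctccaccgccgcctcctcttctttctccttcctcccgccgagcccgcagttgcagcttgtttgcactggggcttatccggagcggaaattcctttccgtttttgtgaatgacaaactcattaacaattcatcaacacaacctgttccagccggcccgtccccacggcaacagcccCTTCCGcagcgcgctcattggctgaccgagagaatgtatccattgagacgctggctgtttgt
The response element began 143 bases upstream of the Dusp1 start and stood in no other member window, against 1.55% of all 32851 windows of this length. The E-box was matched in the Dusp1 and Dusp2 windows (6.02% of all windows), the ETS core in those of Dusp6, Spred1 and Spred2 (13.6%), the CArG box in that of Dusp5 (1.47%) and the AP-1 site in none (4.46%). No matches overlapped in these windows. A window was at hand for 9 members, all but Dusp4, and a match is a description of the letters only.

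Padi4 checked the labels: all 3 of its probes were lower without PAD4, by a log2 difference of -2.22 (scanner error 0.20) at the brightest, where the signals were 12879 and 2670. Both arrays lay on 1 slide and in 1 scan, and 63.9% and 64.1% of probes were well above background. The sort markers Ly6a, which encodes Sca-1, and Kit differed by -0.14 and 0.07. Other genes read with them were Flt3 at -0.67, Slamf1 at 0.47, Cd34 at -0.10 and Ptprc at -0.06. Many genes of committed blood cells differed more. Of the measured markers, 5 of 8 erythroid, 2 of 7 neutrophil, 4 of 8 monocyte and dendritic, 4 of 5 mast cell and basophil, 5 of 8 B cell, 3 of 6 megakaryocyte and 2 of 6 T and NK cell genes were higher by at least 1.5-fold in the PAD4-deficient sample. Over all measured genes, 2.88% were higher by at least 1.5-fold. The markers of committed cells ranged from -0.47 to 2.52 (Ermap, erythroid). The summed unscaled signal of a list was from 0.925 times (T and NK cells, 20335 and 18809) to 1.77 times (mast cells and basophils, 2075 and 3675) that of wild-type cells. Such a sum follows its brightest genes, and most of that for T and NK cells came from Nkg7 (16948 and 16115). Of the T cell markers, Cd3g was not well above background on either array. All 3 measured Y-linked genes were at least 2-fold lower in PAD4-deficient cells, yet still well above background there. Ddx3y had signals of 3455 and 1297, Eif2s3y 2611 and 1076, and Kdm5d 248 and 106 (a difference of -1.17). Xist and the Y-linked Uty were each above background on 1 array only. With the sex of the mice not given, a difference in sex between the samples cannot be told apart from genotype in any value below. In sorted cells that hold several cell types, a change in their mix and a change of RNA per cell cannot be told apart. The part of sex and of the blood cell markers in the values below was not tested.

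All 14 member probes were well above background on both arrays and none was saturated. No member probe reached a 1.5-fold difference in either direction, where 4.57% of the 25520 measured probes did (2.49% higher and 2.08% lower in PAD4-deficient cells). By the brightest measured probe of each gene, 0 of 9 members passed 1.5-fold, against 4.75% of 17019 measured genes. Nor did a member reach 2-fold, where 0.854% of probes were higher and 0.455% lower, and 1.01% of genes were higher and 0.476% lower. The median difference of the 9 members was -0.14, with 8 below 0 and 1 above, where the median of all measured genes was 0.02 and 45.0% of them were below 0. Over the 14 probes the counts were 9 below 0 and 5 above, and their median size regardless of sign was 0.14, the same as over all measured probes. Of the 14 differences 4 exceeded their scanner error, against 31.0% of all measured probes, and 1 was over 2 times that error, against 8.18%. The median scanner error over all measured probes was 0.20. It was also 0.20 at each of the brighter member probes, so there these counts follow a nearly fixed cut. Between spots of the same probe on 1 array, the median standard deviation was 0.059 (wild-type, 165 probes) and 0.052 (PAD4-deficient, 169 probes) in log2. Neither measure covers mice or sorts.

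**Figure D1:**
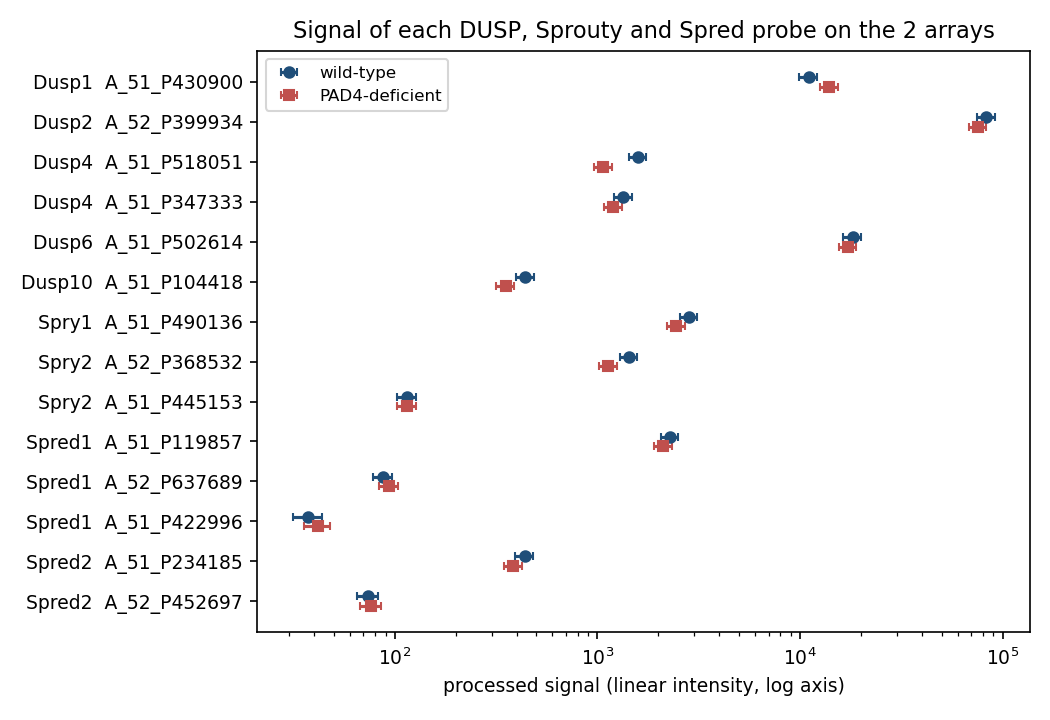
Processed signal (log axis) of each of the 14 member probes on the wild-type array (circles) and the PAD4-deficient array (squares), with the scanner error of the spot as bars. The paired points lie close at every probe, and the widest gap is at Dusp4 A_51_P518051 (1587 and 1068).

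Dusp1 encodes a nuclear phosphatase that acts on p38, JNK and ERK and is switched on within minutes of stress or growth factor signals. Its single probe (A_51_P430900, mm8 chromosome 17, 26233451 to 26233508) gave 11037 units of processed signal with a spot error of 1104 in wild-type cells, and 13930 with a spot error of 1393 in PAD4-deficient cells. By the brightest probe, Dusp1 was the only member higher without PAD4, and the error ranges of its 2 scaled levels did not overlap. The log2 difference was 0.39 (scanner error 0.20), or 1.31-fold.

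Dusp4 encodes another nuclear phosphatase, which acts on ERK and JNK. Its first probe (A_51_P518051, mm8 chromosome 8, 36287508 to 36287567) gave 1587 in wild-type and 1068 in PAD4-deficient cells, with spot errors of 159 and 107. This was the largest difference among the members, at -0.52 (scanner error 0.20), or 1.44-fold lower without PAD4, and 6.01% of all measured probes differed by at least as much. The second Dusp4 probe (A_51_P347333), named through a RIKEN cDNA and placed 2761 bases further along chromosome 8 (36290269 to 36290328), had 1345 and 1197, a difference of -0.12 within its error of 0.20. Both Dusp4 probes were lower without PAD4, but their differences were 0.40 apart. Among the 5877 genes with at least 2 measured probes, the differences of a gene's probes spanned a median of 0.18, with an upper quartile of 0.32. Over the members, the error ranges of the 2 scaled levels were apart only at Dusp1 and at this first Dusp4 probe. That is 2 of 14 probes, against 17.4% of all measured probes.

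Dusp2 encodes a nuclear phosphatase found mainly in blood cells. Its named probe (A_52_P399934, mm8 chromosome 2, 127029635 to 127029694) had signals of 83031 and 75474, with spot errors of 8303 and 7547, and differed by -0.09 (scanner error 0.20). The 2 arrays overlapped within these errors. Another probe carries the name of a transcript cluster and lies outside the rule, but its description in the files is that of the same phosphatase. This probe (A_51_P306031) sits 1348 bases before the named one, and its difference was -0.33 (scanner error 0.20), from signals of 9106 and 7018, with error ranges that did not overlap after scaling. It was named after its values were seen. Both Dusp2 probes were lower without PAD4, by differences 0.24 apart.

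Dusp6 encodes the cytoplasmic phosphatase that is selective for ERK. Its probe (A_51_P502614, mm8 chromosome 10, 98697039 to 98697098) had signals of 18181 and 17247, with spot errors of 1818 and 1725. The difference of -0.03 was the smallest among the members by size, and 90.1% of all measured probes differed by at least as much. Dusp10 encodes a phosphatase that acts mainly on p38 and JNK. Its probe (A_51_P104418, mm8 chromosome 1, 185775985 to 185776044) had signals of 440 and 352, with spot errors of 44.2 and 35.4, and its difference was -0.27, lower without PAD4. That value exceeded its scanner error of 0.20, while the error ranges of the 2 scaled levels overlapped, unlike those of the unscaled signals.

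**Figure D2:**
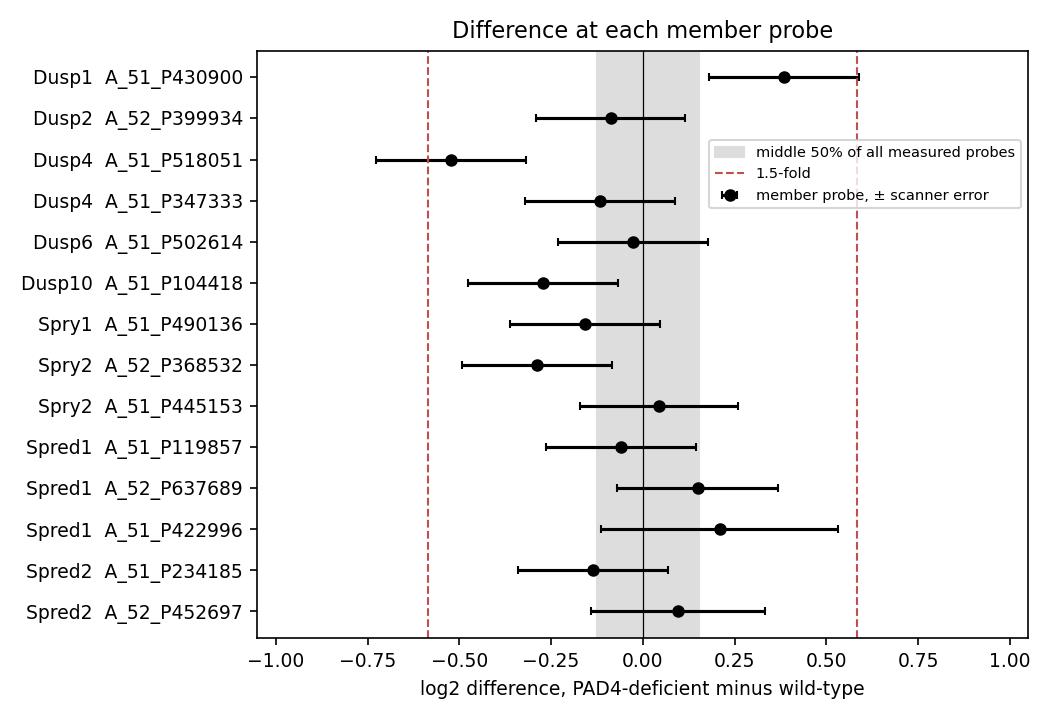
Log2 difference, PAD4-deficient minus wild-type, at each member probe with its scanner error, beside the middle 50% of all 25520 measured probes (grey, -0.13 to 0.15) and the 1.5-fold lines (dashed). All 14 points lie between the dashed lines, from -0.52 (Dusp4) to 0.39 (Dusp1).

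Sprouty proteins are themselves switched on downstream of growth factor receptors and hold back Ras and Raf. Spry1 had 1 probe (A_51_P490136, mm8 chromosome 3, 37835821 to 37835880), with signals of 2827 and 2449 and spot errors of 283 and 245. The difference was -0.16, within its scanner error of 0.20, and the error ranges overlapped. Spry2, which also binds the ubiquitin ligase Cbl, had 2 probes placed 516 bases apart on mm8 chromosome 14. The first (A_52_P368532, 104777767 to 104777826, named through an expressed sequence tag) gave 1431 and 1132, a difference of -0.29 (scanner error 0.20). Its error ranges overlapped after scaling, unlike those of the unscaled signals. The second (A_51_P445153, 104778283 to 104778342, named through the RefSeq transcript) gave 115.0 and 114.5, a difference of 0.04 (scanner error 0.21). The Spry2 probes thus gave opposite signs, 0.33 apart, and the sign of the second turned to -0.01 with median scaling.

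Spred proteins carry an EVH1 domain and bring neurofibromin, the Ras inactivator encoded by Nf1, to the cell membrane. Spred1 had 3 probes on mm8 chromosome 2. The first (A_51_P119857, 116873555 to 116873614, named through a RIKEN cDNA) had signals of 2281 and 2113 and a difference of -0.06 (scanner error 0.20). The other two, both named through the RefSeq transcript, were above 0. A_52_P637689 (116863426 to 116863485) had 87.2 and 93.4, a difference of 0.15 (scanner error 0.22), and A_51_P422996 (116868761 to 116868820) had 37.4 and 41.8, a difference of 0.21 (scanner error 0.32). Each of the 3 values was smaller than its error.

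Spred2 had 2 probes, 1365 bases apart on mm8 chromosome 11. The one named through a RIKEN cDNA (A_51_P234185, 19923715 to 19923774) had signals of 437 and 384 and a difference of -0.14 (scanner error 0.20). The one named through the RefSeq transcript (A_52_P452697, 19922350 to 19922409) had 73.8 and 76.2 and a difference of 0.10 (scanner error 0.24). In Spry2, Spred1 and Spred2 alike the probe with the higher signal was below 0 and each dimmer probe above 0, within its scanner error at every one of these probes but the brighter Spry2 probe. The value of a gene taken from its brightest probe is therefore negative where another probe of the gene is not.

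**Figure D3:**
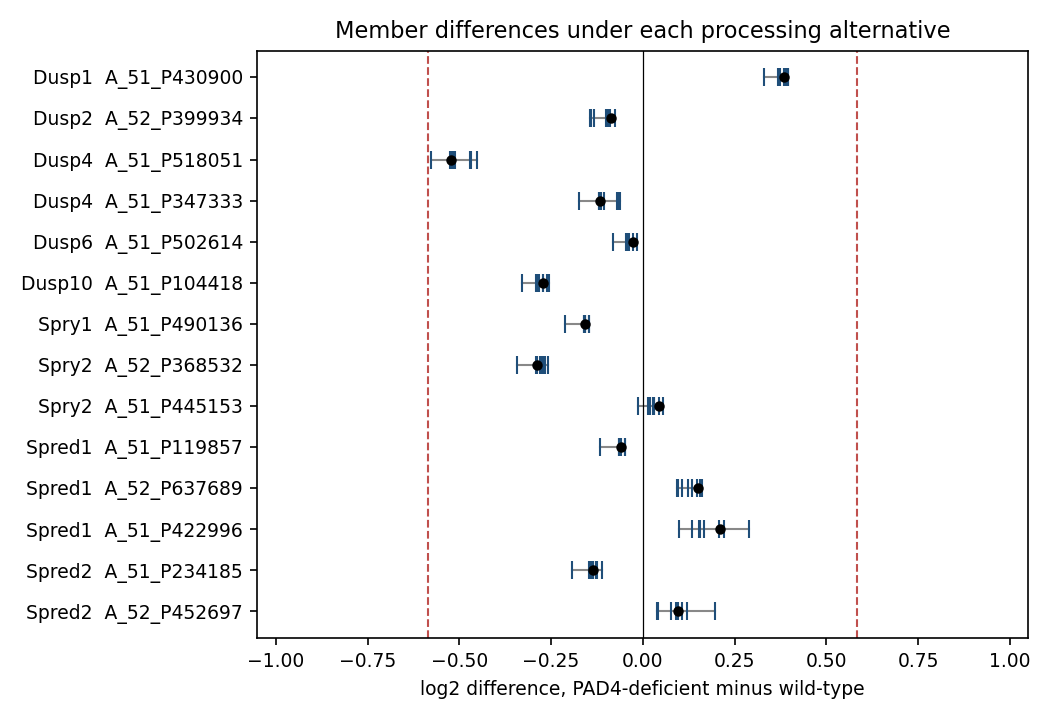
Log2 difference at each member probe in the main processing (black dots) and under 8 alternatives of background correction, scaling and value source (ticks), with the 1.5-fold lines dashed. No tick crosses a dashed line, and the lowest is -0.58 at Dusp4 A_51_P518051.

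The rest of the pathway was read from 5 gene lists, counted at 1.5-fold by the brightest measured probe, where 2.88% of all measured genes were higher and 1.87% lower in PAD4-deficient cells. Among 16 measured receptors that feed Ras and ERK in blood cells, 1 was higher and 1 lower, with a median of 0.04. Epor, the erythropoietin receptor and also one of the erythroid markers above, had signals of 417 and 739 and a difference of 0.87. Flt3, the receptor of early lymphoid and dendritic progenitors, had 2439 and 1481 and a difference of -0.67. The chains Csf1r, Csf2ra and Csf2rb, of receptors for myeloid growth factors, differed by 0.10, -0.01 and 0.06 at their brightest probes. The lowest of the other probes was at -0.35 for Csf1r and at -0.48 for Csf2rb.

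None of 27 measured genes from Ras to ERK passed 1.5-fold, and their median was -0.01. Araf, which encodes a kinase that activates MEK, differed by -0.08, and the adaptor Gab1 by -0.09. Braf, a kinase of the same step, differed by -0.35 at its brightest probe, and its 5 probes spanned -0.35 to 0.22. None of 24 measured genes of the JNK and p38 cascades passed 1.5-fold, and their median was -0.08, with 16 below 0. Gadd45a, Gadd45b and Gadd45g, stress-induced proteins that bind an upstream kinase of these cascades, differed by 0.14, -0.37 and 0.11. The p38 kinase genes Mapk12 and Mapk13, named after their values were seen, came nearest to the threshold, each at -0.54.

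Of 23 measured genes listed as outputs or targets of ERK signalling, 1 was at least 1.5-fold higher and 3 were at least 1.5-fold lower. The median of the list was -0.13, with 14 genes below 0. Myc was the higher one, with a difference of 0.87 at its brightest probe and 0.24 and 0.99 at its other probes. The lower ones were the early growth response factors Egr2 (signals of 1189 and 647, a difference of -0.83) and Egr3 (231 and 132, -0.76, with -0.44 at its other probe), and Plaur, the urokinase receptor (10208 and 6132, -0.69, with -0.83 at its other probe). With normexp background correction and an offset of 50, Egr3 was at -0.53, no longer 1.5-fold. Ccnd1, Cic and Egr1 differed by 0.10, 0.01 (-0.18 at the lowest of its 3 probes) and -0.34.

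Among 16 measured genes of other MAP kinase phosphatases, Sprouty relatives and further inhibitors, none was 1.5-fold higher and 2 were 1.5-fold lower, with a median of -0.11 and 12 below 0. Dusp16, a phosphatase of JNK and p38, had signals of 231 and 137 and a difference of -0.70, with -0.34 at its other probe. Dusp8, a phosphatase of the same kinases, had 250.4 and 156.0 and a difference of -0.63, with -0.50 at its other probe. With normexp background correction and an offset of 50, these became -0.46 for Dusp16 and -0.46 for Dusp8, no longer 1.5-fold. Cbl, Cblb and Dusp18 differed by 0.01, 0.13 and -0.30 (0.06 at the other Dusp18 probe). The remaining Sprouty genes on the array, Spry3 and Spry4, were not well above background on either array.

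**Figure D4:**
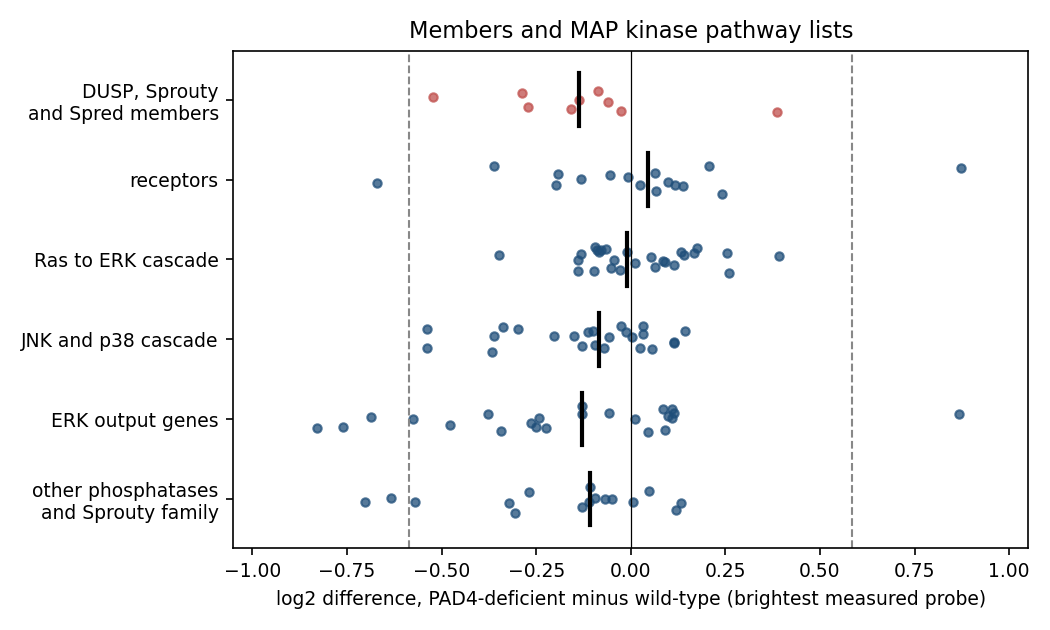
Log2 difference, PAD4-deficient minus wild-type, of every measured gene (points, brightest measured probe) in the 9 members and the 5 pathway lists, with each median as a black bar and the 1.5-fold lines dashed. The members span -0.52 to 0.39, and points beyond the dashed lines appear for the receptors, the ERK output genes and the other phosphatases.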

How the data were processed

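RNA of sorted LSK cells, labelled with Cy3, was read on 2 one-colour Agilent arrays. Per the file headers, the arrays were of design 014868, with probes placed on mm8, and were read with Feature Extraction 9.5.3.1 (9.5 in the submitters' processing notes). The deposited intensity per spot is a processed signal after background subtraction and detrending. The deposited log2 table held, for all 41174 probes, the log2 median processed signal minus 9.67 (wild-type) or 9.62 (PAD4-deficient), with column medians of -3.59 and -3.53, so its scale and direction are known and genes were not centred.

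Control and outlier spots were left out. Each value was the log2 signal minus the 75th percentile of the array (814 and 786). A probe was measured when well above background on both arrays. Differences are the PAD4-deficient value less the wild-type one. A gene took its brightest measured probe. Names of list genes were updated through RefSeq (GRCm38.p6), through an accession for 24371 probes, a symbol for 6301 and a synonym for 2426, and 8072 kept the file's name. Probe coordinates are those of the files, and exon or UTR positions in mm8 were not used here. The number of arrays limits the precision: no difference has a replicate check. The members, lists and fold thresholds were chosen with earlier results of these data known. Named genes were all members, list genes past 1.5-fold (at most 4 per list and direction) and up to 3 others per list in alphabetical order. Alternatives covered background correction, scaling, value table, filter, probe rule and fold. The steps were tested on simulated data, made by putting changes of more than 2-fold on the wild-type array. That test does not show whether differences as small as those of the members would be recovered. Python 3.11.15, numpy 2.4.6, pandas 2.3.3, statsmodels 0.14.6, R 4.3.3 and limma 3.58.1 were used.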

Additional observations from a re-analysis of the deposited data

How the results depend on the processing

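No paired analysis was possible because a single array stands for either genotype, and leaving one out would end the comparison. The count of members at 1.5-fold stayed at 0 in each direction under all 12 alternatives, and the member median lay between -0.19 and -0.09. The looser filters on signal, the mean over probes and the 2-fold cut could not have raised that count. Every member probe was well above background on both arrays, and none reached 1.5-fold. The deposited value table holds the same signals less a constant per array. Each of the 14 probe differences moved by less than its scanner error under the 8 alternatives of background, scaling and value source, 1 of them (no multiplicative detrending) chosen after seeing the data. Dusp4 A_51_P518051 ranged from -0.58 to -0.45 and Dusp1 from 0.33 to 0.40. The list counts at 1.5-fold changed as follows. Of the other phosphatases and Sprouty relatives, the 2 lower genes became 0 with normexp and an offset of 50, 1 with no offset and 0 with the mean over probes. They became 3 with median scaling, through Rasal1 at -0.63. The count was also 3 with a looser filter (well above background on at least 1 array, or no filter). Rasal1 stayed at -0.57 there, so the added gene was another one. The 3 lower ERK output genes became 2 with normexp and an offset of 50, and 4 with median scaling or the mean over probes. With median scaling 2 JNK and p38 genes, Mapk12 and Mapk13, were lower. With either looser filter, 1 cascade gene (Gab2) and 2 receptors (Epor and Egfr) were higher. With no filter, 2 genes of the ERK output list (Myc and Elk1) were higher. At 2-fold, 0 genes of any list were higher or lower. The offset and the looser filters act on dim probes by construction. Signal over background limits the dimmest member probes, whose scanner errors reach 0.32.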
